A study of Arabidopsis thaliana with 8 samples.

Results

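The 10 genes described here are the cold-response regulators CBF1, CBF2 and CBF3 and 7 of the COR (cold-regulated) genes, namely COR15A, COR15B, KIN1, KIN2, COR47, RD29A and COR413IM1. They were chosen by locus identifier from a count table of 33602 Arabidopsis thaliana loci, and all 10 were found in it. Transcripts were counted by RNA sequencing in whole seedlings of a pair of hybrids, to ask what the growth regulator PIF4 does in a hybrid at moderate and warm temperature. In the pif4 hybrid the accession C24 was crossed with the PIF4 mutant pif4-101, and in the Col hybrid it was crossed with Col. All seeds were kept for 3 days at 4 °C in the dark on medium and then germinated for 1 day at 22 °C in short days, so every group, also the warm one, had passed through cold before germination. Seedlings were then grown at 27 °C or 22 °C, and pooled seedlings were collected at ZT0, lights on, 7 or 4 days after sowing. This gave 8 conditions with 1 library each, 4 at 27 °C and 4 at 22 °C. As a cross, the pif4 hybrid should still have a functional PIF4 copy from C24, which limits it as a model of PIF4 loss.

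CBF proteins, also called DREB1, are transcription factors of the AP2/ERF family that plants make within hours of a cold shock. They bind the C-repeat (CRT/DRE) element, whose core is CCGAC, in front of COR genes, and the COR proteins that follow help cells withstand freezing and water loss. CBF genes are gated by the circadian clock and are read little at warm temperature, and PIF4 and PIF7 are known as repressors of the CBF genes in long days. Several COR genes also carry ABRE elements (core ACGTG), through which abscisic acid raises them without cold.

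The CRT/DRE core is the sequence through which CBF proteins act on COR genes. It was found on either strand within 1000 bases before the start codon in 7 of 7 COR genes and in 0 of 3 CBF genes. The same window held it in 39.4% of 27443 Arabidopsis genes. This window includes transcribed bases before the start codon. In the 300 bases before the annotated gene start, 4 of 7 COR genes held the core, against 13.9% of all genes. These were COR15A, COR15B, RD29A and COR413IM1. The site nearest to the start codon of each COR gene is printed here in the direction of the gene, 5′ to 3′, with the core in capitals (GTCGG is the core read on the other strand). Sequences and positions are from RefSeq, build TAIR10.1.
COR15A, chr2:17712218-17712242, minus strand, 266 bases before the start codon: aatttcatggCCGACctgctttttt
COR15B, chr2:17710124-17710148, minus strand, 265 bases before the start codon: aacttgatggCCGACctcttttttc
KIN1, chr5:5209804-5209828, plus strand, 178 bases before the start codon: taaatagctaCCGACataaggcaaa
KIN2, chr5:5211771-5211795, plus strand, 185 bases before the start codon: taaaaagctaCCGACataaggcaaa
COR47, chr1:7085918-7085942, minus strand, 268 bases before the start codon: tattcatctaCCGACttcaagaaat
RD29A, chr5:21240711-21240735, plus strand, 208 bases before the start codon: aaagatcaagCCGACacagacacgc
COR413IM1, chr1:10289911-10289935, minus strand, 386 bases before the start codon: aattagttatGTCGGtaccaatgaa

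The core lay on the gene's own strand in 6 of these 7 sites and on the other strand in COR413IM1. KIN1 and KIN2, tandem copies, shared the core and the bases after it in the printed site. RD29A held 4 cores, the most of the 7 genes, COR15A held 3, COR15B and KIN1 held 2 each, and KIN2, COR47 and COR413IM1 held 1 each. The printed core falls inside the annotated transcript region in COR15A, COR15B, KIN1, KIN2, COR47 and RD29A, and upstream of it in COR413IM1. The annotated gene start of COR47 lies 1209 bases before its start codon, and that of COR413IM1 lies 127 bases before it.

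**Figure D1:**
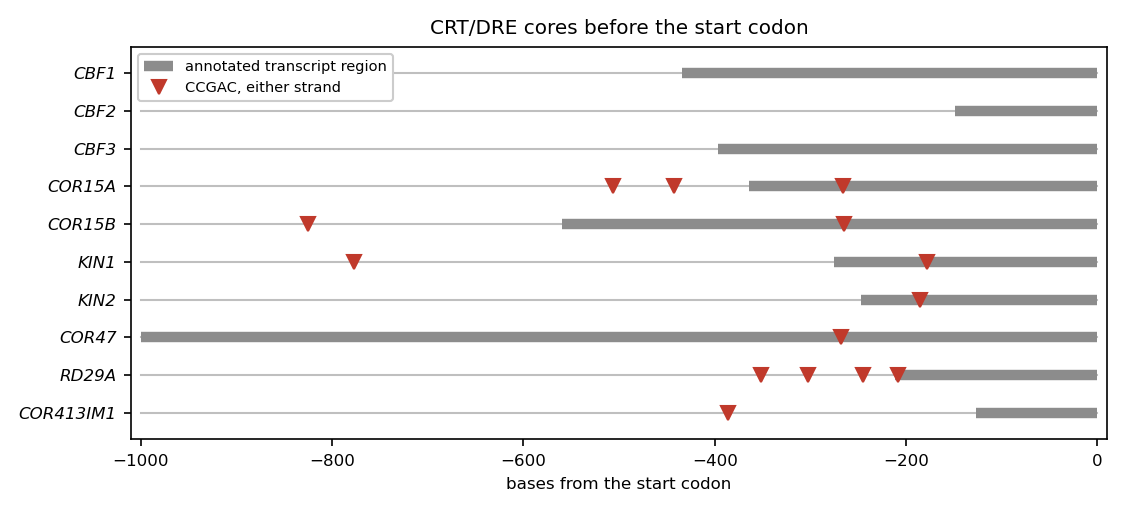
Position of every CCGAC core, on either strand, in the 1000 bases before the start codon of each of the 10 genes, with the start codon at 0. The thick bar is the annotated transcript region before the start codon. The 3 CBF genes have no core, RD29A has 4, and the single core of COR413IM1 lies 386 bases before the start codon.

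The 300 bases before the annotated gene start are shown for the 3 COR genes that the results below set apart. These are COR413IM1 (higher at 27 °C in every pair), COR15A (lower at 27 °C on day 7) and RD29A, the gene with most cores. CRT/DRE cores (CCGAC or GTCGG) and ABRE cores (ACGTG or CACGT) are in capitals, and CACGTG, the G-box to which PIF proteins bind, holds an ABRE core on both strands.
COR413IM1 (AT1G29395), chr1:10289667-10289966, minus strand: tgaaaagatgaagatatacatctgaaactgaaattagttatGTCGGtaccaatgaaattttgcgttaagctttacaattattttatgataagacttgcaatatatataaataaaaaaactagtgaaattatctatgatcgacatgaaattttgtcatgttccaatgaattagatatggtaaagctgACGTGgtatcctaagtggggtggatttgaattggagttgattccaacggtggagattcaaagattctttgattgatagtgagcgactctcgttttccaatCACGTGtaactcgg
COR15A (AT2G42540), chr2:17712331-17712630, minus strand: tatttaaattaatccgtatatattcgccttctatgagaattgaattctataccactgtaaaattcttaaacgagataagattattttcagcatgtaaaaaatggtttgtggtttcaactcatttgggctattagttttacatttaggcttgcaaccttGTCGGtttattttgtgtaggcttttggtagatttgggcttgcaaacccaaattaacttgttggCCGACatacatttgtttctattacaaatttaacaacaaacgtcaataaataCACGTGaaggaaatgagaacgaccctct
RD29A (AT5G52310), chr5:21240417-21240716, plus strand: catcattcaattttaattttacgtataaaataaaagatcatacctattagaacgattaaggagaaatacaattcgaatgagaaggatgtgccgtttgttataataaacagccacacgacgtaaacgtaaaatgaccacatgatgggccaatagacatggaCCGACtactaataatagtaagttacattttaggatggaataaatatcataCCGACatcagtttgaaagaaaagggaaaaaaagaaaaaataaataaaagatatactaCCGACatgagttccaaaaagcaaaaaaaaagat

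In these windows COR413IM1 held 1 CRT/DRE core beside 3 ABRE core matches, COR15A held 2 beside 2, and RD29A held 3 beside 0. A G-box was found in the 300 bases of 3 of the 10 genes (CBF2, COR15A and COR413IM1), against 7.09% of all genes. In the 1000 bases before the start codon it was found in 7 of 10 genes, against 15.1% of all genes, and an ABRE core in 10 of 10, against 54.2%. The evening element, AAAATATCT on either strand, which clock proteins bind, was found in that window in 7 of 10 genes (CBF1, CBF2, CBF3, COR15A, COR15B, KIN1 and KIN2), against 7.26% of all genes. COR47, RD29A and COR413IM1 did not hold it. KIN1 and KIN2, COR15A and COR15B, and the CBF genes are neighbouring copies, so their matches are not independent, and a match is a run of letters and no measure of binding.

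Total counts ranged from 1664128 in the Col hybrid at 22 °C on day 4 to 25440561 in the Col hybrid at 27 °C on day 7. Levels are given as TMM-scaled CPM, that is, counts relative to library size after scaling for library composition. A count of 0 allows a level of up to 2.14 CPM in the shallowest library and 0.106 CPM in the deepest, which is that of 3 counts. These limits, and all intervals, cover counting error only. Green shoot markers (3 genes) summed to 3920 to 7328 CPM at 27 °C and 5929 to 17710 CPM at 22 °C, and root markers (3 genes) to 1659 to 2353 CPM at 27 °C and 1828 to 3361 CPM at 22 °C, so shoot and root transcripts were both read. The 3 dry seed markers summed to 0.0705 to 81.9 CPM at 27 °C and 0 to 1.43 CPM at 22 °C. Of these, SESA1 was at 0 in all libraries, whereas the storage protein gene CRA1 was at 77.2 CPM in the Col hybrid and 25.9 CPM in the pif4 hybrid at 27 °C on day 4 and at most 0.715 CPM in the other libraries. PIF4 itself was read in all 8 libraries, at 157 to 186 CPM in the pif4 hybrid and 176 to 187 CPM in the Col hybrid at 27 °C, and its difference between hybrids was -0.16 (log2 fold change, SE 0.11, adjusted p = 1, edgeR). Pooled seedlings of 1 condition were sequenced once each, so the spread behind each p-value is what the fitted model leaves unexplained between conditions. That spread may be technical, or may hold effects of the conditions that the model leaves out. The edgeR estimate of it also draws on the other genes. In whole seedlings fewer cells with a transcript and less transcript per cell cannot be told apart.

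The 3 regulators were close to the limit of detection in all conditions. CBF1 (AT4G25490), at chr4:13021780-13022996, had 4 counts over the 8 libraries. CBF3 (AT4G25480, named DREB1A in RefSeq), at chr4:13018010-13019400, had 8 counts, and 29 of its bases overlap a long noncoding RNA gene on the other strand. CBF2 (AT4G25470), at chr4:13015250-13016235, had 94 counts and was the one CBF gene seen in 7 of 8 libraries.

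In the order pif4 hybrid day 7, pif4 hybrid day 4, Col hybrid day 7 and Col hybrid day 4, which also holds for the values that follow, CBF2 was at 1.06, 0.796, 0.846 and 0.868 CPM at 27 °C, against 0.720, 0.698, 1.14 and 0 CPM at 22 °C. The groups overlapped, and the single 0 was in the shallowest library, where 0 counts allow up to 2.14 CPM. Pooled over libraries, CBF2 had 62 counts at 27 °C and 32 counts at 22 °C, a CPM ratio of 1.07 (95% exact interval 0.687 to 1.69). The edgeR log2 fold change at 27 °C over 22 °C was 0.16 (SE 0.365, adjusted p = 0.78). For day 7 over day 4 it was 0.28 (SE 0.374, adjusted p = 0.576), and for the pif4 hybrid over the Col hybrid -0.05 (SE 0.359, adjusted p = 1). CBF2 had no main effect that passed the test. The counting interval for temperature reaches 1.69-fold, and as it holds no spread between samples, a larger difference is not excluded.

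CBF1 and CBF3 did not pass the low-count filter, 0.876 CPM (10 counts in the library of median size) in 4 or more libraries. CBF1 had 2 counts at 27 °C and 2 counts at 22 °C, and CBF3 had 6 counts at 27 °C and 2 counts at 22 °C. The CPM ratio was 0.552 (interval 0.0400 to 7.62) for CBF1 and 1.66 (interval 0.296 to 16.8) for CBF3, so neither direction was detectable at this depth. The coding sequences of the 3 genes share 85% to 86.9% of their bases, and reads from matching stretches may have been assigned to another copy or to none.

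Levels differed widely between the 10 genes. Scaled to exon length in the RefSeq annotation, the median over the 8 libraries was 89.6 CPM per kb for COR47, a dehydrin that binds water and membranes, and 38.0 CPM per kb for KIN2, a small hydrophilic protein. It was 26.5 CPM per kb for COR413IM1, a protein of the chloroplast inner envelope. RD29A, a large hydrophilic protein that is widely used as a stress reporter, followed at 1.39 CPM per kb, CBF2 at 0.832, COR15A at 0.391, KIN1 at 0.317, COR15B at 0.101, CBF3 at 0.0199 and CBF1 at 0 CPM per kb. COR15A and COR15B encode stroma proteins that protect chloroplast membranes in the cold.

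The 3 highest genes overlapped with their neighbours in this order. COR47 spanned 64.1 to 178 CPM per kb, KIN2 11.1 to 111 and COR413IM1 7.29 to 64.4. The lowest COR413IM1 library lay above the highest RD29A library, at 2.77 CPM per kb. Below COR413IM1, each gene's range overlapped that of the next.

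**Figure D2:**
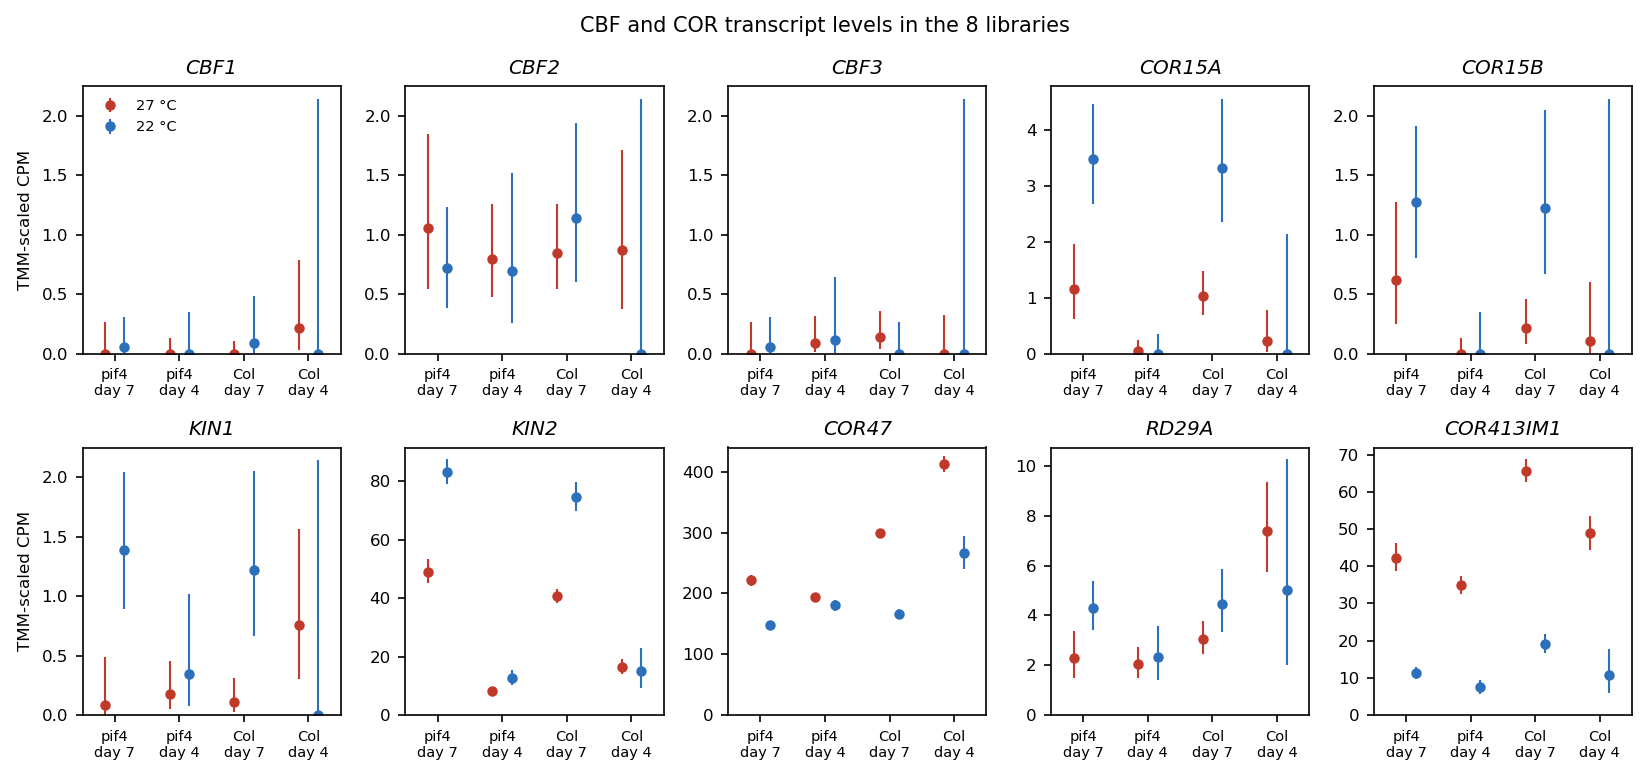
TMM-scaled CPM (vertical axes, each starting at 0) of the 10 genes in the 8 libraries, 1 point per library, with 27 °C in red left of 22 °C in blue. Bars are exact 95% counting intervals, or reach the level of 3 counts where a library had 0, and the Col hybrid 22 °C day 4 library (1664128 counts) has the widest. COR413IM1 is higher at 27 °C in every pair, and COR15A and KIN2 are highest in the 22 °C day 7 libraries.

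**Figure D3:**
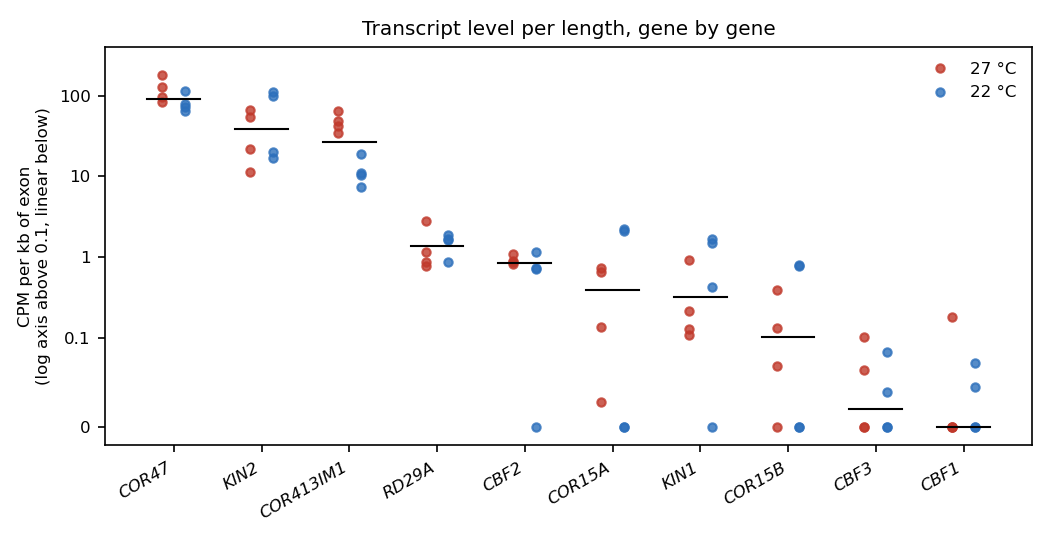
Level per kb of exon in each of the 8 libraries, 1 point per library, by gene and temperature, on an axis that is logarithmic above 0.1 CPM per kb and linear below. Black lines are medians over the 8 libraries. COR47, KIN2 and COR413IM1 lie at medians of 89.6, 38.0 and 26.5 CPM per kb, and the other 7 genes at 1.39 CPM per kb or less.

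At 27 °C the tested genes did not all move one way. Of the 6 genes tested (CBF2, COR15A, KIN2, COR47, RD29A and COR413IM1), 2 rose and 2 fell, where 19.5% of all 19829 genes tested rose and 19.2% fell (edgeR quasi-likelihood test, adjusted p under 0.05). The median log2 fold change was -0.12 over the 6 genes and 0.01 over all genes tested. COR413IM1 and COR47 rose, COR15A and KIN2 fell, and RD29A and CBF2 did not pass. Of the markers, 2 of 3 green shoot genes fell at 27 °C (RBCS1A by 1.00 and LHCB2.1 by 0.65 on the log2 scale) and 0 of 3 root genes passed, and their part in these results was not tested.

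COR413IM1 (AT1G29395), at chr1:10288129-10289666, had the largest rise of the 6 tested genes. In the order given above it was at 42.3, 34.9, 65.7 and 48.8 CPM at 27 °C, against 11.2, 7.44, 19.1 and 10.7 CPM at 22 °C. Every warm library lay above every cooler one, and the lowest warm value, 34.9 CPM, was well above the highest cooler value, 19.1 CPM. The log2 fold change was 1.97 (SE 0.115, adjusted p = 8.42e-07, edgeR), and single pairs gave 1.77 to 2.21.

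This rise was seen in each hybrid and at each age. It was 2.06 (SE 0.170, adjusted p = 0.000182, edgeR) in the pif4 hybrid and 1.87 (SE 0.182, adjusted p = 0.000266) in the Col hybrid, where 13.2% and 11.1% of all genes passed. It was 1.84 (SE 0.139, adjusted p = 1.62e-06, edgeR) on day 7 and 2.19 (SE 0.178, adjusted p = 8.39e-06) on day 4, where 35.8% and 11.1% of all genes passed. Neither the difference between hybrids (0.19, SE 0.245, adjusted p = 1.0) nor that between ages (-0.34, SE 0.229, adjusted p = 0.676) passed.

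COR47 (AT1G20440), at chr1:7084409-7086873, was at 221, 194, 299 and 413 CPM at 27 °C, against 149, 180, 167 and 266 CPM at 22 °C. It was higher at 27 °C in 4 of 4 pairs, by 0.11 to 0.84 on the log2 scale, although the groups overlapped, because the 22 °C Col hybrid on day 4 lay above 2 warm libraries. The log2 fold change was 0.55 (SE 0.146, adjusted p = 0.0105, edgeR). The highest value, 413 CPM, came from the Col hybrid at 27 °C on day 4, the library in which the dry seed gene CRA1 was also highest, and the part of that library's seed transcripts in the result was not tested. Within day 7, where CRA1 was at 0.166 CPM or less, COR47 rose by 0.70 (SE 0.197, adjusted p = 0.0138, edgeR). Within the Col hybrid it rose by 0.74 (SE 0.211, adjusted p = 0.0428), and within the pif4 hybrid the change was 0.36 (SE 0.208, adjusted p = 0.254). With the 22 °C day 7 library of the Col hybrid left out, the rise over all pairs no longer passed (0.39, SE 0.159, adjusted p = 0.0959).

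RD29A (AT5G52310, LTI78 in RefSeq), at chr5:21240717-21243644, was at 2.29, 2.03, 3.07 and 7.38 CPM at 27 °C, against 4.32, 2.33, 4.46 and 5.0 CPM at 22 °C. It was lower at 27 °C in 3 of 4 pairs and higher in the Col hybrid on day 4, where CRA1 was at 77.2 CPM. The log2 fold change was -0.39 (SE 0.326, adjusted p = 0.360, edgeR). Without that 27 °C library it was -0.62 (SE 0.224, adjusted p = 0.0315), and within day 7 it was -0.83 (SE 0.354, adjusted p = 0.0798). The counts were small, 7 to 87 per library, and the part of that library's seed transcripts in the RD29A result was not tested.

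**Figure D4:**
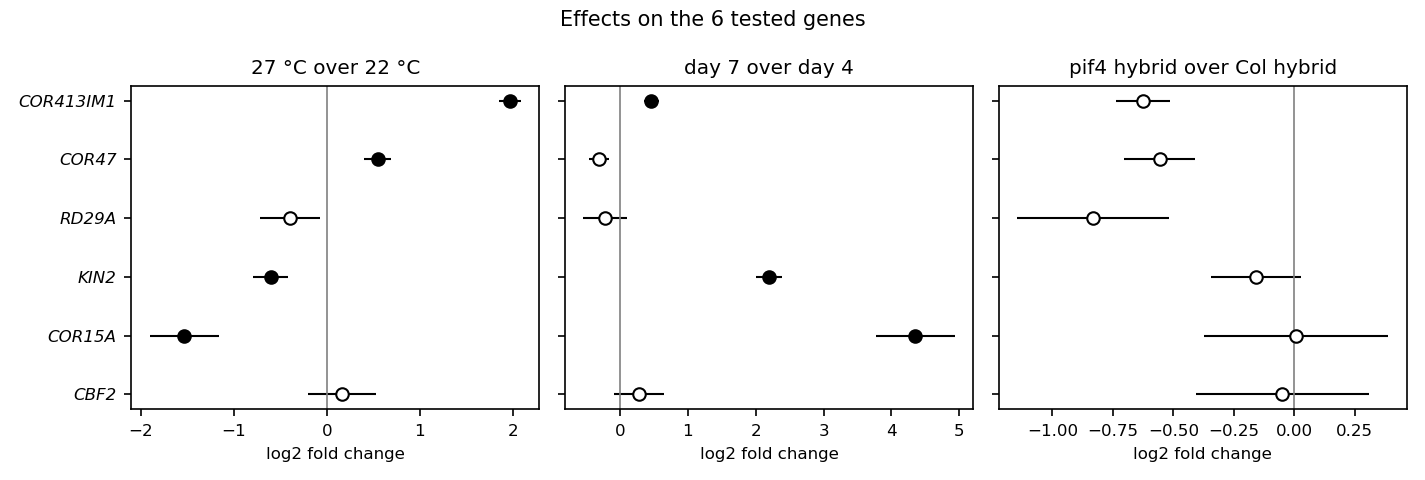
Log2 fold changes of the 6 tested genes (edgeR, horizontal axes with their own scale in each panel) for temperature, age and genotype, with bars of 1 SE. Filled points passed an adjusted p of 0.05. COR413IM1 (1.97) and COR47 (0.55) lie right of 0 for temperature, KIN2 (-0.60) and COR15A (-1.53) lie left of it, and no gene passed for genotype. COR15A passed the low-count filter only through its day 7 libraries, which obliged it to differ with age.

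The COR15 and KIN genes had their highest counts relative to depth in the 22 °C day 7 libraries. COR15A (AT2G42540), at chr2:17710441-17712330, was at 1.15, 0.0442, 1.02 and 0.217 CPM at 27 °C, against 3.49, 0, 3.32 and 0 CPM at 22 °C. On day 7 both warm libraries lay below both cooler ones, whereas on day 4 the 4 libraries held 3 counts in all. The log2 fold change over all pairs was -1.53 (SE 0.375, adjusted p = 0.00684, edgeR), and within day 7 it was -1.67 (SE 0.334, adjusted p = 0.00215). COR15A passed the filter only through its 4 day 7 libraries, so without any one of them it could not be tested.

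KIN2 (AT5G15970), at chr5:5211719-5212743, was at 49.1, 8.35, 40.7 and 16.4 CPM at 27 °C, against 83.2, 12.7, 74.6 and 15 CPM at 22 °C. It was lower at 27 °C in 3 of 4 pairs, and the Col hybrid on day 4 went the other way by 0.13 on the log2 scale. The log2 fold change was -0.60 (SE 0.189, adjusted p = 0.0234, edgeR), -0.82 (SE 0.204, adjusted p = 0.00680) within day 7 and -0.20 (SE 0.284, adjusted p = 0.691) within day 4. Over all pairs KIN2 no longer passed when the library left out was the Col hybrid 22 °C day 7 (adjusted p = 0.0660), Col hybrid 27 °C day 7 (0.0765), pif4 hybrid 27 °C day 4 (0.0806), pif4 hybrid 22 °C day 7 (0.123) or pif4 hybrid 27 °C day 7 library (0.0639). It was also lost with the library total as a covariate (adjusted p = 0.103).

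COR15B (AT2G42530), at chr2:17708593-17710433, and KIN1 (AT5G15960), at chr5:5209717-5210826, were too low for the filter. COR15B had 7, 0, 6 and 1 counts at 27 °C, against 23, 0, 14 and 0 counts at 22 °C. KIN1 had 1, 4, 3 and 7 counts at 27 °C, against 25, 3, 14 and 0 counts at 22 °C. For both genes the 22 °C day 7 libraries held the most. In pooled CPM, the ratio of 27 °C to 22 °C was 0.209 (95% exact interval 0.104 to 0.396) for COR15B and 0.197 (0.102 to 0.363) for KIN1, beside 0.246 (0.169 to 0.353) for COR15A. On day 7 alone the ratio was 0.261 (0.127 to 0.502) for COR15B, 0.0762 (0.0198 to 0.211) for KIN1 and 0.309 (0.210 to 0.447) for COR15A. These intervals cover counting error and no spread between seedlings. The temperature pools over all libraries, also those of the CBF genes, do not keep the matched pairs. Day 7 libraries held a larger share of the 22 °C pool than of the 27 °C pool. The ratios over all libraries therefore also reflect age, whereas those on day 7 alone do not mix ages. When no filter was applied, the log2 fold change was -1.63 (SE 0.60, adjusted p = 0.0412, edgeR) for COR15B and -2.16 (SE 0.650, adjusted p = 0.0135) for KIN1.

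The KIN pair shows how alike the coding bases of tandem copies can be. Exons span 829 bases in KIN1 and 750 in KIN2, and the exon bases outside the coding sequence were not compared. The 201 coding bases of each gene, joined over exons between chr5:5209992-5210473 for KIN1 and chr5:5211966-5212441 for KIN2, differ at 10 bases, shown in capitals.
KIN1 (AT5G15960): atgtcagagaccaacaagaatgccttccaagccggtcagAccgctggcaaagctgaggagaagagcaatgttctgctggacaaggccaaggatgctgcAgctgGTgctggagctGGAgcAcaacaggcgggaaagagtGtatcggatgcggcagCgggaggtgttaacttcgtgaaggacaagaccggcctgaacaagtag
KIN2 (AT5G15970): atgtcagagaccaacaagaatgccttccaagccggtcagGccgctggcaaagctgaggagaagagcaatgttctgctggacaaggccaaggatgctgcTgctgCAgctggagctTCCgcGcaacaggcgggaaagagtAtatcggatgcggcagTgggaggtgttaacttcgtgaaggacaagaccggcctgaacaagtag
The coding sequences are 95% identical in bases and 92.4% in residues, and the longest stretch without a difference is 58 bases. KIN1 took few of the pair's counts, 0.179% to 2.07% in the 27 °C pif4 hybrid libraries and 0.259% to 4.43% in the 27 °C Col hybrid libraries, against 1.64% to 2.68% and 0% to 1.61% at 22 °C. COR15A and COR15B share 82.9% of their bases, and 468 bases of COR15B overlap AT2G42520 on the other strand. Per the labels, stranded and unstranded kits were both used and are not assigned to libraries, so counts of COR15B may include reads of that neighbour, and the counts of the KIN, COR15 and CBF copies may have been shared among them.

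KIN2 and both COR15 genes were higher on day 7 than on day 4. KIN2 was at 49.1 and 40.7 CPM at 27 °C and 83.2 and 74.6 CPM at 22 °C on day 7 (pif4 hybrid, then Col hybrid), against 8.35 and 16.4 CPM at 27 °C and 12.7 and 15 CPM at 22 °C on day 4. Every day 7 library lay above every day 4 library, and the log2 fold change was 2.19 (SE 0.194, adjusted p = 7.52e-06, edgeR). COR413IM1 rose by 0.46 (SE 0.113, adjusted p = 0.00467) and was higher on day 7 in 4 of 4 pairs, by 0.28 to 0.83. COR47 (-0.31, SE 0.145, adjusted p = 0.0955), RD29A (-0.22, SE 0.321, adjusted p = 0.602) and CBF2 did not pass. In all, 3 of the 6 genes rose and 0 fell, where 24.8% of all genes tested rose and 24% fell, and 1 of the 3 was COR15A, which its filter obliged to differ. Green shoot markers summed to 3920 to 7466 CPM on day 7 and 4834 to 17710 CPM on day 4, and LHCB2.1, 1 of the 3, fell by 0.65 on the log2 scale (adjusted p = 0.0268, edgeR). Root markers summed to 1659 to 2353 CPM on day 7 and 1814 to 3361 CPM on day 4, and EXPA7, 1 of the 3, fell by 1.59 (adjusted p = 0.00115). Dry seed markers summed to 0 to 0.166 CPM on day 7 and 0.233 to 81.9 CPM on day 4. The part of these shifts in the age results was not tested.

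COR15A had 143 counts on day 7 and 3 counts on day 4, a CPM ratio of 28.8 (95% exact interval 9.66 to 141). COR15B had 50 counts on day 7 and 1 count on day 4 (ratio 30.2, interval 5.18 to 1217), and KIN1 had 43 counts on day 7 and 14 counts on day 4 (ratio 1.86, interval 0.996 to 3.67). At 22 °C KIN1 had 39 counts on day 7 and 3 counts on day 4 (ratio 4.41, interval 1.40 to 22.3). COR15A and COR15B thus lay near 0 on day 4 in both hybrids and at both temperatures, and the shallowest of those libraries allowed up to 2.14 CPM. With no filter, the log2 fold change of COR15B was 4.26 (SE 0.954, adjusted p = 0.000942, edgeR). The pooled age ratios over both temperatures do not keep the matched pairs. In them, 22 °C libraries held a larger share of the day 7 pool than of the day 4 pool. Those ratios therefore also reflect temperature.

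Across the 8 libraries COR15A, COR15B and KIN2 followed each other (Pearson r of log2 CPM 0.976 for COR15A with COR15B, 0.966 for COR15A with KIN2 and 0.960 for COR15B with KIN2). The points share the 2 ages, at which these genes differ most, and no test was made. COR47 and COR413IM1 correlated at 0.60 with each other and at -0.36 and 0.18 with COR15A. CBF2 correlated at 0.52 with COR15A and -0.18 with COR47, from sparse counts.

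Between the hybrids 0 of the 6 genes passed the edgeR test, in which 0.00504% of all genes passed, that is 1 of 19829 genes. Of the 6 genes, 3 had an unadjusted p under 0.05, as did 4.01% of all genes, and each of these was lower in all 4 pif4 hybrid libraries than in the paired Col hybrid library. COR413IM1 was at 42.3, 11.2, 34.9 and 7.44 CPM in the pif4 hybrid, against 65.7, 19.1, 48.8 and 10.7 CPM in the Col hybrid (27 °C and 22 °C on day 7, then on day 4), and the log2 fold change was -0.63 (SE 0.11, adjusted p = 0.188, edgeR). Of the alternative settings, DESeq2 called COR413IM1 (-0.62, adjusted p = 0.0422), as did edgeR with no filter (-0.62, adjusted p = 0.0412). No edgeR fit with 1 library left out called it (adjusted p from 0.0681 to 0.657). The share of all genes called for genotype by DESeq2 or with no filter is not given here, so those calls cannot be set against it. COR47 was at 221, 149, 194 and 180 CPM in the pif4 hybrid, against 299, 167, 413 and 266 CPM in the Col hybrid (-0.56, SE 0.146, adjusted p = 0.652). RD29A was at 2.29, 4.32, 2.03 and 2.33 CPM in the pif4 hybrid, against 3.07, 4.46, 7.38 and 5.0 CPM in the Col hybrid (-0.83, SE 0.314, adjusted p = 1.0). For all 3 genes the ranges of the hybrids overlapped.

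KIN2 (-0.16, SE 0.186), COR15A (0.01, SE 0.381) and CBF2 (-0.05, SE 0.359) had adjusted p = 1 between hybrids, from edgeR. In pooled CPM, the ratio of the pif4 hybrid to the Col hybrid was 0.928 (95% exact interval 0.662 to 1.3) for COR15A, 1.19 (0.658 to 2.18) for COR15B, 1.14 (0.656 to 2.02) for KIN1 and 0.906 (0.592 to 1.39) for CBF2. These pools sum libraries of unequal depth and do not keep the matched pairs. The ratios therefore also reflect the ages and temperatures that weigh most in each pool. A p that misses the threshold does not show that the hybrids were alike.

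A difference of the temperature effect between hybrids passed the test in 0 of the 6 genes and in 0% of all genes. None of the 6 had an unadjusted p under 0.05 there in edgeR, and DESeq2 called 0. The difference of the temperature effect between hybrids was -0.77 (SE 0.630) for RD29A, -0.38 (SE 0.296) for COR47 and -0.30 (SE 0.391) for KIN2, each with an adjusted p = 1.0. The temperature effect differed between ages in 0 of 6 genes (0.267% of all genes passed, 0 of the 6 had an unadjusted p under 0.05, and DESeq2 called 0). It was -0.62 (SE 0.348, adjusted p = 0.622) for KIN2 and -1.13 (SE 0.579, adjusted p = 0.590) for RD29A. Without the pif4 hybrid 27 °C day 4 library, which leaves 1 library at 27 °C on day 4, the difference was -1.29 for KIN2 and -1.89 for RD29A. The age effect differed between hybrids in 0 of 6 genes, where 0.0908% of all genes passed and DESeq2 called 0. KIN2 (1.03, SE 0.259) and RD29A (1.59, SE 0.441) had an unadjusted p under 0.05 and an adjusted p = 0.573. Without the Col hybrid 22 °C day 4 library, which leaves 1 Col hybrid library on day 4, the difference was 1.27 for KIN2.

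The genes that act on the CBF genes were also counted. Of 18 listed upstream regulators, 17 were tested, and at 27 °C 7 rose and 3 fell, where 19.5% of all genes rose and 19.2% fell. The median log2 fold change was 0.23, against 0.01 over all genes. PRR7, a clock repressor of the CBF genes, rose by 2.16 (SE 0.132, adjusted p = 1.00e-06, edgeR). PIF4 rose by 1.21 (SE 0.113, adjusted p = 1.65e-05) and PIF3, a related factor, by 1.08 (SE 0.167, adjusted p = 0.000433). LHY, a morning clock factor that binds CBF promoters, fell by 0.90 (SE 0.132, adjusted p = 0.000310). With age 1 of the 17 rose and 9 fell, where 24.8% of all genes rose and 24% fell. The changes named were PRR9 by 0.67 and PHYB, CAMTA1 and LHY by -0.62, -0.60 and -0.66 (edgeR, highest adjusted p = 0.00289 of the 4).

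Among 6 relatives of the CBF genes, CBF4, DDF1 and DDF2 had 0 or 1 counts in every library, and 2 were tested. DREB2A, a factor of heat and drought responses, was at 4.32, 4.46, 4.72 and 7.27 CPM at 27 °C, against 1.55, 1.51, 1.05 and 3.57 CPM at 22 °C. The groups did not overlap, and it rose by 1.63 (SE 0.262, adjusted p = 0.000572, edgeR). RAP2.1, a DREB-type repressor and CBF target, changed by 0.14 (SE 0.198, adjusted p = 0.598).

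Of 22 other cold-induced genes 21 were tested, of which 7 rose and 4 fell at 27 °C (all genes, 19.5% and 19.2%), with a median log2 fold change of 0.26. BAM3, a beta-amylase of chloroplast starch, fell by 1.57 (SE 0.116, adjusted p = 3.59e-06, edgeR). GRP8 and GRP7, RNA-binding proteins under clock control, rose by 0.73 (SE 0.124, adjusted p = 0.000800) and 0.58 (SE 0.119, adjusted p = 0.00246). COR28, a repressor in the clock and cold response, is also counted among the 7 that rose (1.93, SE 0.383, adjusted p = 0.00206). It was at 0.881 to 1.74 CPM at 27 °C and 0.262 to 0.715 CPM at 22 °C. COR28 passed the filter only through its 27 °C libraries, so the filter obliged it to differ. COR413IM2, the neighbouring relative of COR413IM1, was picked after its value was seen, and changed by 0.31 (SE 0.119, adjusted p = 0.0543). With age 4 of the 21 rose and 3 fell, shares below the 24.8% and 24% of all genes. Those named were COR27 by 1.14 (SE 0.196), BAM3 by 0.52 (SE 0.114), CSP2 by -0.38 (SE 0.117) and RD29B by -1.83 (SE 0.391), each passing the edgeR test. The fall of RD29B lay at 27 °C, from 60.8 to 6.70 CPM in the Col hybrid and from 23.5 to 6.52 CPM in the pif4 hybrid. At 22 °C RD29B was at 4.29 and 4.28 CPM in the Col hybrid and 3.49 and 3.71 CPM in the pif4 hybrid (day 4, then day 7). Between the hybrids 0 genes of the 3 lists passed in edgeR, and 5 of the 21 cold-induced genes and 0 of the others had an unadjusted p under 0.05, as did 4.01% of all genes.

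**Figure D5:**
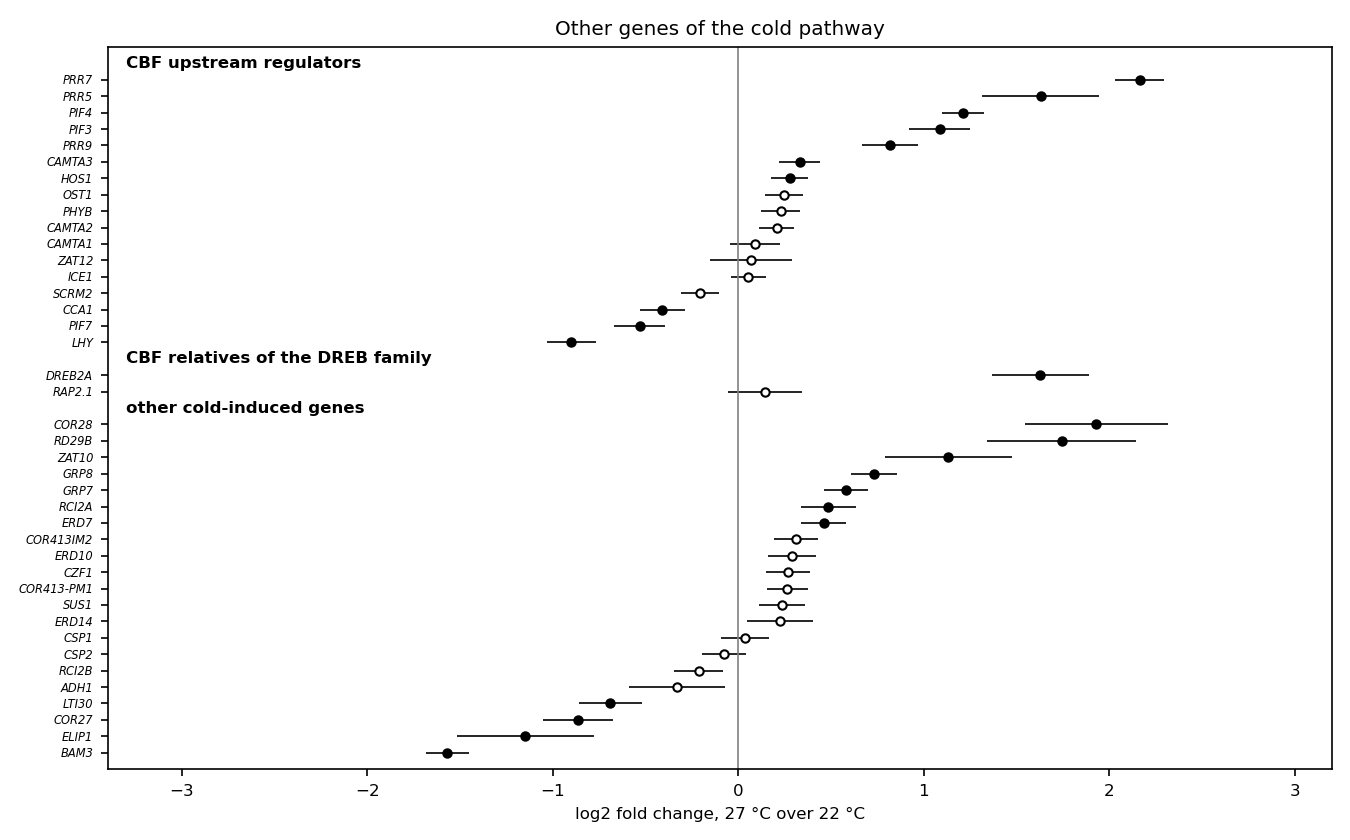
Log2 fold change at 27 °C over 22 °C (edgeR, bars of 1 SE) of the tested genes in the lists of upstream regulators (17), DREB relatives (2) and other cold-induced genes (21). Filled points passed an adjusted p of 0.05. PRR7 lies highest among the regulators at 2.16, COR28 highest among the cold-induced genes at 1.93 and BAM3 lowest at -1.57. COR28 passed the low-count filter only through its 27 °C libraries, which obliged it to differ.

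Genes whose levels ran most like the members were sought among 15800 genes averaging 5 CPM or more, by Pearson r of log2 CPM over the 8 libraries. The genes closest to COR413IM1 were FDH (r = 0.991), AT4G33490 (0.991), TCP15 (0.984), BGLU16 (0.983) and AT5G41270 (0.982). FDH, a formate dehydrogenase of mitochondria, spanned 59.0 to 204 CPM. Closest to COR15A were LST8-1 (0.995), AT5G04080 (0.993), AT3G63390 (0.993), AT1G63290 (0.991) and AT4G01960 (0.990), all higher in each day 7 library than in any day 4 library. Closest to the mean of the CBF genes were AT1G13810 (0.996), AT3G44150 (0.986), MYB7 (0.978), AT2G36340 (0.975) and MORF1 (0.965), each lowest in a day 4 library. The CBF mean is lowest in the shallowest library, where all 3 CBF genes had 0 counts. With 8 points and that many genes searched, high values of r arise readily, and they are given as a description.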

How the data were processed

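Whole-seedling RNA of 8 conditions (1 library each) was sequenced. The values are gene-level read counts, whole numbers that the authors deposited without normalization. Tools in the submitters' processing notes are HTSeq 0.6.1p1, StringTie 1.3.5, HISAT2, Picard and FastQC 0.11.5, and the build is TAIR10; roles and settings are not given in the sources used here. Mapping of C24 alleles was not assessed. TMM-scaled counts were fitted in R 4.3.3 with the quasi-likelihood F-test of edgeR 4.0.16 as hybrid + age + temperature (4 residual degrees of freedom, 4 matched pairs per factor). Interaction terms and effects within a hybrid or age had 3. Genes with at least 0.876 CPM in 4 or more libraries were tested (19829), with Benjamini-Hochberg adjustment over them at 0.05. The SE is the log2 fold change divided by the square root of F. Alternatives were DESeq2 1.42.0 and its size factors, no filter, thinned counts, library total as a covariate, leaving out each library and, chosen after seeing the data, a block for each matched pair of conditions. Pooled ratios compare summed counts over summed TMM-scaled library sizes, with exact conditional 95% intervals, and do not keep the matched pairs. Sequences came from RefSeq TAIR10.1, in which 32835 of 33602 loci were found. Other pathway genes named are up to 4 per list with the smallest p. Members and lists were chosen with earlier results of these data known. Scripts were tested on simulated data.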

Additional observations from a re-analysis of the deposited data

Results flagged for a closer look

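RD29B, the neighbour and relative of RD29A and a target of abscisic acid signalling, had a temperature effect that differed between the ages. The difference, day 7 minus day 4, was -2.56 on the log2 scale (SE 0.472, adjusted p = 0.0346, edgeR interaction term). RD29B was at 23.5 CPM in the pif4 hybrid and 60.8 CPM in the Col hybrid at 27 °C on day 4, and at 6.70 CPM or less in the other 6 libraries. The same 2 libraries held the seed storage transcript CRA1 at 25.9 and 77.2 CPM, and its part in the result was not tested.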

How the results depend on the processing

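The labels carry no replicate numbers, so a replicate block could only stand for the 4 matched pairs of conditions of a factor. This paired fit, chosen after seeing the data, called 4 of the 6 tested genes for temperature, 3 for age and 0 for genotype, as without the block, and changed the call of none of the 6; over all genes it called 7 for genotype, against 1. Of the 6 tested genes, 4 were called for temperature with TMM, with DESeq2 size factors, with the DESeq2 test and with no filter. The number was 3 with the library total as a covariate and 3 of 3 tested after thinning all libraries to 1664128 counts. Leaving out 1 library gave 1 to 5 called genes for temperature: 1 without the Col hybrid 22 °C day 7 library, 2 without any other day 7 library and 5 without the Col hybrid 27 °C day 4 library. Part of the drop without a day 7 library is COR15A, which then missed the filter. The log2 fold change of COR413IM1 for temperature stayed at 1.91 to 2.06 without any one library (highest adjusted p = 2.64e-05), and that of COR47 at 0.39 to 0.72. For age the number was 3, with 2 after thinning and 2 to 4 without any one library. COR15A, which its filter obliged to differ with age, is among the 3 here and in the paired fit. COR47 passed for age without the pif4 hybrid 27 °C day 4 library (-0.48, adjusted p = 0.0127, edgeR). For genotype it was 0, with 1 (COR413IM1) by DESeq2 and 1 with no filter, and 0 to 0 without any one library. For the 3 interaction terms, leaving out 1 library leaves 1 library in a group compared, so no numbers of called genes are given. Over all genes, those called for temperature ranged from 4245 to 9835 without any one library, and were 4796 with the library total as a covariate and 3748 after thinning. Of the upstream regulators 4 were called for temperature after thinning and 6 to 12 without any one library, against 10; of the other cold-induced genes 6 to 11, against 11, and for age 3 to 10, against 7. RD29A, not called within day 7, passed there with no filter (-0.82, adjusted p = 0.0160). Apart from the library left out or the genes dropped, the cause was not tested. Depth limits CBF1, CBF3, COR15B and KIN1, which held 4 to 57 counts in all.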
